A study of Homo sapiens with 6 samples.

Results

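The TRiC/CCT chaperonin is the ring-shaped folding machine of the human cytosol, and its 8 subunit genes (TCP1, CCT2, CCT3, CCT4, CCT5, CCT6A, CCT7 and CCT8) are described here in HOS cells, a line established from a human osteosarcoma. The genes were taken by symbol. All 8 were found among the 16376 genes of the deposited table, and all 8 passed the filter on low values that left 12143 genes for testing. RNA was measured by sequencing with a stranded mRNA kit in 3 libraries of HOS cells treated with Agrimol B, a phloroglucinol derivative of agrimony plants, for 24 h and in 3 libraries of control HOS cells. All cells are labelled as wild type. The control cells are labelled as having no treatment, without word on a solvent, and no dose is stated in the labels. Nothing there ties the replicates to separate cultures, so a p-value here sets a difference against a spread that may be technical only.

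TRiC consists of a pair of stacked rings, each built from one copy of every subunit, and closes over an unfolded protein when it uses ATP. Actin and tubulin depend on it to fold, as do many proteins built from WD repeats, such as the mitotic activator CDC20. Unfolded chains reach it from prefoldin and from HSP70 chaperones, and phosducin-like cofactors bind it directly. The subunits are not equal: CCT2, CCT4 and CCT5 belong to the side of the ring that binds ATP strongly, and CCT3, CCT6A and CCT8 to the side that binds it weakly.

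Values are FPKM, sequenced fragments divided by transcript length and by library size, a level per length that allows genes to be compared. Totals per library lay between 352990 and 359537 FPKM. The number of reads behind a value is unknown, although the pattern of the lowest values gave depths relative to the first control library. These were 0.99 and 1.04 in control replicates 2 and 3, and 1.00, 1.19 and 1.16 in Agrimol B replicates 1 to 3. Each of these estimates rests on 19 to 34 genes, and the 2 deeper libraries are both from Agrimol B. Of 8 mesenchymal markers, all were detected in every library, with vimentin (VIM) at 704 ± 6.96 FPKM without and 540 ± 7.39 FPKM with Agrimol B (SD, n = 3 each). Of these 8 markers, 5 were called lower and 0 higher with Agrimol B (median log2 difference -0.45). Over all genes tested, 21.4% were called lower and 30.6% higher, and 36.9% of genes whose mean reached 100 FPKM were called lower. The epithelial list summed to 13.5 to 15.6 FPKM in control and 13.1 to 31.2 FPKM in Agrimol B libraries. Its highest sum came from the third Agrimol B library, with KRT5 at 10.4 and KRT14 at 5.87 FPKM against at most 0.745 FPKM in any other library, and EPCAM stood at 13.0 to 14.7 FPKM throughout. PTPRC, the pan-leukocyte marker, was at 0 in 5 libraries and at 0.0578 FPKM in the second Agrimol B library. CD14, a monocyte marker, stood at 1.19 to 1.81 FPKM in control and 0.393 to 0.774 FPKM in Agrimol B libraries (limma adjusted p = 0.00964). The part of these marker transcripts in the results was not tested; without that library CCT3 and CCT8 remained called lower (log2 differences -0.45 and -0.26; limma adjusted p = 0.00331 and 0.0165) and CCT2 did not.

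The chaperonin transcripts were abundant with and without Agrimol B, and the subunits differed between the groups by unequal amounts. CCT3, CCT8 and CCT2 fell, by 24.2%, 17.1% and 13.4% of the control mean, and 0 of the 8 rose by limma (also 0 at an unadjusted p under 0.05). The other 5 subunits did not pass the test, with TCP1 13.4% above and CCT4 11.3% below control. Differences were tested with limma on log2(FPKM + 1), with Benjamini-Hochberg adjustment over the 12143 genes and a threshold of 0.05. The background is wide: 52.0% of all genes tested were called, 21.4% lower (2598) and 30.6% higher (3713), a split that became 3150 lower and 3084 higher with median-ratio scaling. Among the 531 genes whose mean reached 100 FPKM, as it did for all 8 subunits, 59.1% were called, 36.9% lower and 22.2% higher. The 3 of 8 subunits called lower are therefore near the share of other abundant genes. The median log2 difference of the 8 was -0.14, against 0.07 for all genes tested and -0.07 for the abundant ones. GENCODE names pseudogenes after 6 of the subunits, 4 after CCT6A, 2 each after TCP1, CCT4, CCT5 and CCT7, and 1 after CCT8, and how the authors assigned reads shared with such copies is not stated in the labels.

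**Figure D1:**
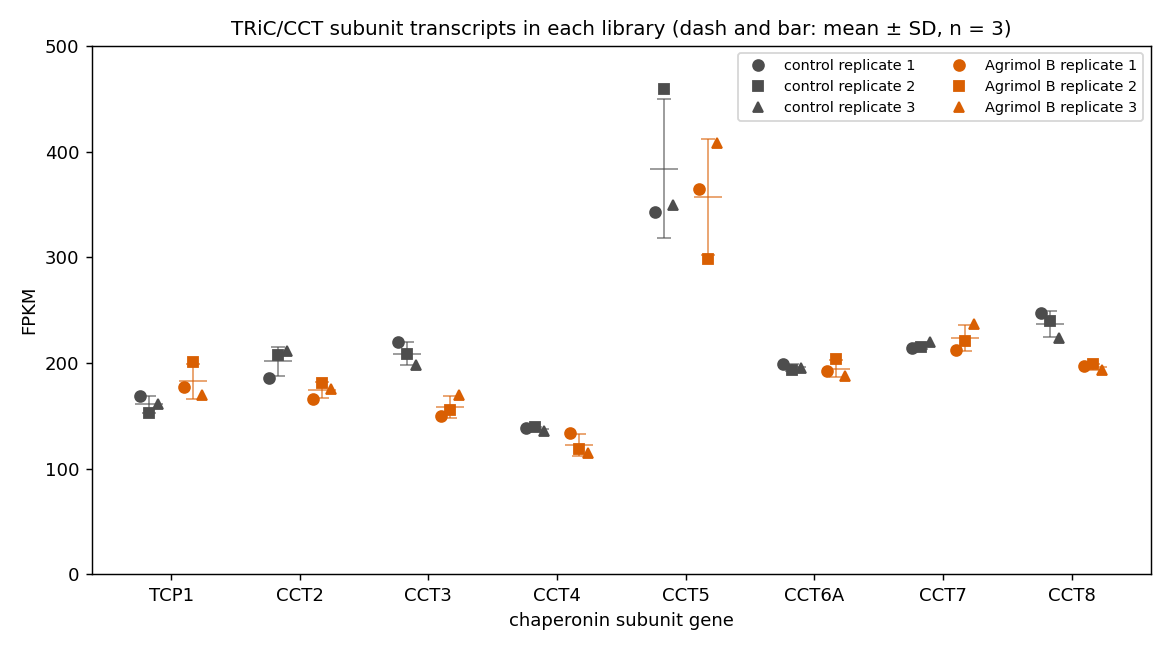
FPKM of each TRiC/CCT subunit gene (horizontal axis) in the 3 control and 3 Agrimol B libraries, with symbols for the replicates and the mean ± SD of each group. CCT3, CCT8, CCT2 and CCT4 lie lower and TCP1 lies higher with Agrimol B, without overlap of the groups, but CCT4 and TCP1 did not pass the test. Groups did not overlap in 62.2% of all genes tested and in 67.8% of those whose mean reached 100 FPKM. CCT5 has the highest level and the widest spread.

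On the weak ATP side of the ring, CCT3, the gamma subunit (chromosome 1, 156308968 to 156367873, minus strand, GRCh38), had the largest difference. It stood at 220, 208 and 198 FPKM in the control libraries and at 150, 156 and 169 FPKM in the Agrimol B libraries. Every Agrimol B library lay below every control library. The fall from 209 ± 10.6 to 158 ± 10.2 FPKM was 1.32-fold, with a log2 difference of -0.40 (SE 0.06, 95% interval -0.55 to -0.25; limma adjusted p = 0.00262). The call held in every alternative run. Of the 531 abundant genes, 29.0% differed by more than CCT3 did. The gene overlaps TSACC on the other strand, which stood at 1.14 to 1.80 FPKM in all libraries.

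CCT8, the theta subunit (chromosome 21, 29055805 to 29073797, minus strand), stood at 248, 240 and 223 FPKM in control and at 197, 199 and 193 FPKM in Agrimol B libraries. The groups did not overlap, and the 3 Agrimol B values lay close together. Across all genes tested, 62.2% had groups that did not overlap, and 67.8% of the abundant genes. CCT8 fell from 237 ± 12.4 to 196 ± 3.06 FPKM, with a log2 difference of -0.27 (SE 0.05, 95% interval -0.38 to -0.16; limma adjusted p = 0.00400). This call also held in every alternative run.

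CCT6A, the zeta subunit (chromosome 7, 56051630 to 56063989, plus strand), belongs to the same side of the ring. Its control libraries held 199, 193 and 195 FPKM and its Agrimol B libraries 192, 203 and 188 FPKM. The groups overlapped, and the log2 difference was -0.01 (0.038 with quantile normalization) with a 95% interval of -0.11 to 0.09. That interval leaves room for neither a fall of the size measured in CCT3 nor the one measured in CCT8. CCT6B, its close relative known from testis and outside the naming rule, was close to 0: 0.174 to 0.312 FPKM in control and 0.550 to 0.710 FPKM in Agrimol B libraries, too low to enter the test.

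Of the subunits named above for the strong ATP side, CCT2, the beta subunit (chromosome 12, 69585334 to 69601570, plus strand), was the only one to pass the test. TCP1 and CCT7 were not assigned to a side here, and whether the sides differ was not tested. Its control libraries held 186, 207 and 211 FPKM and its Agrimol B libraries 166, 181 and 175 FPKM. The groups did not overlap, although the first control and the second Agrimol B library came close. The log2 difference was -0.21 (SE 0.06, 95% interval -0.36 to -0.05; limma adjusted p = 0.0328). This call did not hold widely: the adjusted p was 0.114 with quantile normalization and 0.0746 to 0.0950 when control replicate 2 or 3 or Agrimol B replicate 1 or 3 was left out (0.0115 to 0.114 over all alternatives).

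CCT4, the delta subunit (chromosome 2, 61868089 to 61888804, minus strand), held 138, 139 and 136 FPKM in control and 134, 118 and 115 FPKM in Agrimol B libraries. The first Agrimol B library lay close to the control libraries and the other two lay lower. The log2 difference of -0.17 (SE 0.06) missed the threshold (limma adjusted p = 0.0567). It passed with median-ratio scaling (adjusted p = 0.0200) and without Agrimol B replicate 1 (adjusted p = 0.00596; 0.00596 to 0.145 over all alternatives). CCT4 overlaps COMMD1 on the other strand, which stood at 7.48 to 8.38 FPKM in control and 9.79 to 10.6 FPKM in Agrimol B libraries (limma adjusted p = 0.00753).

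CCT5, the epsilon subunit (chromosome 5, 10249921 to 10266412, plus strand), varied most. It held 342, 459 and 349 FPKM in control and 364, 299 and 408 FPKM in Agrimol B libraries. The highest and the lowest of the 6 values came from the second control and the second Agrimol B library, and the groups overlapped throughout. Its spread within groups, 0.23 on the log2 scale, exceeded that of 91.5% of abundant genes, whose median was 0.06. The 95% interval of its log2 difference, -0.48 to 0.28, therefore covers a fall as large as that of CCT3 as well as a rise. The log2 difference of -0.10 became 0.035 without the second control library, 0.021 without the second Agrimol B library and 0.052 with quantile normalization.

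TCP1, the alpha subunit and founding member of the family (chromosome 6, 159778498 to 159789749, minus strand), stood at 169, 153 and 161 FPKM in control and at 177, 201 and 170 FPKM in Agrimol B libraries. The groups did not overlap, but the third Agrimol B and the first control library nearly met. The log2 difference was 0.18 (SE 0.07, 95% interval -0.002 to 0.36; limma adjusted p = 0.0875), and TCP1 passed the test with quantile normalization (adjusted p = 0.0217; 0.0217 to 0.263 over all alternatives). TCP1 overlaps the cholesterol pathway gene ACAT2 on the other strand, which went from 74.4 ± 1.85 to 37.5 ± 0.933 FPKM (limma adjusted p = 3.06e-05). The labels do not state whether the authors' counting used strand.

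CCT7, the eta subunit (chromosome 2, 73233420 to 73253021, plus strand), stood at 214, 215 and 219 FPKM in control and at 212, 221 and 237 FPKM in Agrimol B libraries. The groups overlapped, and the log2 difference was 0.04 (-0.022 with median-ratio scaling) with a 95% interval of -0.07 to 0.16. The exact two-sided permutation test over the 6 libraries, which cannot give less than 0.1 with 3 libraries per group, gave p = 0.1 for TCP1, CCT2, CCT3, CCT4 and CCT8. The same exact test gave p = 0.7 for CCT5, 0.8 for CCT6A and 0.6 for CCT7.

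**Figure D2:**
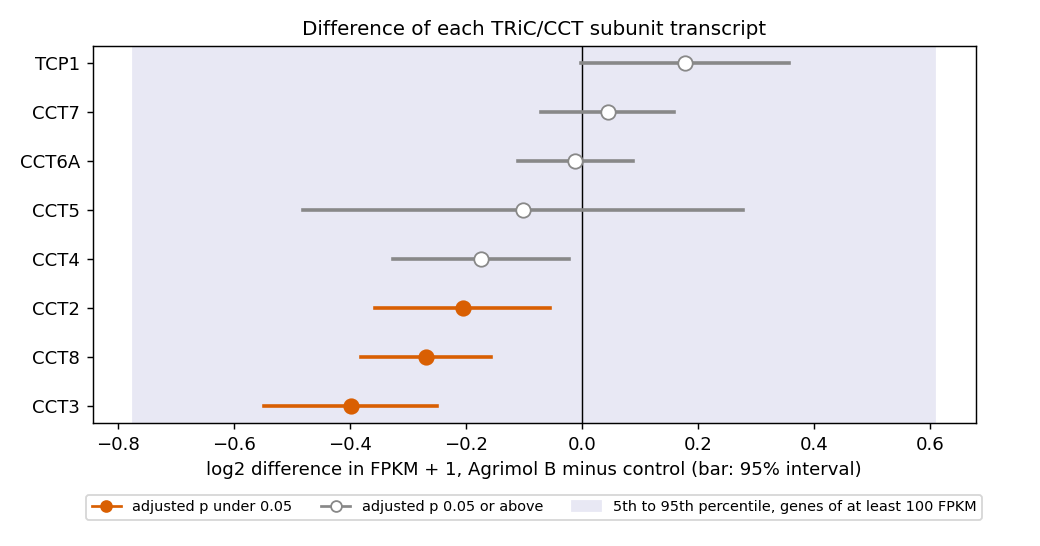
Log2 difference of FPKM + 1 (Agrimol B minus control) for the 8 subunits, with 95% intervals from limma; filled points passed an adjusted p of 0.05. CCT3, CCT8 and CCT2 lie below 0, and all 8 points lie inside the shaded 5th to 95th percentile range of abundant genes, -0.77 to 0.61.

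The order of the levels was read from the same libraries. In control cells CCT5 led with a mean of 384 FPKM, followed by CCT8 (237), CCT7 (216), CCT3 (209), CCT2 (201), CCT6A (196), TCP1 (161) and CCT4 (138 FPKM). CCT7, CCT3, CCT2 and CCT6A each overlapped the next in that run, while CCT5, CCT8, TCP1 and CCT4 did not overlap their neighbours. With Agrimol B the order was CCT5 (357), CCT7 (223), CCT8 (196), CCT6A (194), TCP1 (182), CCT2 (174), CCT3 (158) and CCT4 (122 FPKM). From CCT8 down to CCT3 each overlapped the next. CCT4 was the lowest and CCT5 the highest subunit in each of the 6 libraries, and the highest exceeded the lowest by 2.48 to 3.57 times.

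Because every ring holds each subunit once, the balance between the transcripts was also described as shares of their sum. CCT3 held 12.0% ± 0.705 of the summed subunit FPKM in control cells and 9.83% ± 0.422 with Agrimol B. CCT8 held 13.6% ± 0.707 and 12.2% ± 0.493. In the other direction, TCP1 held 9.26% ± 0.738 and 11.4% ± 1.26, and CCT7 12.4% ± 0.549 and 13.9% ± 0.502 (SD, n = 3 for each). For these 4 genes the shares of the groups did not overlap, and for CCT2, CCT4, CCT5 and CCT6A they did. No count over other genes was made for this measure. In FPKM the groups of CCT7 overlapped, and 62.2% of all genes tested and 67.8% of the abundant ones had groups that did not. A share moves whenever any other subunit does, so these 8 values are not independent. The ratio of CCT3 to TCP1, chosen after the values were seen, was 1.30, 1.36 and 1.24 in control and 0.844, 0.775 and 0.999 in Agrimol B libraries.

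**Figure D3:**
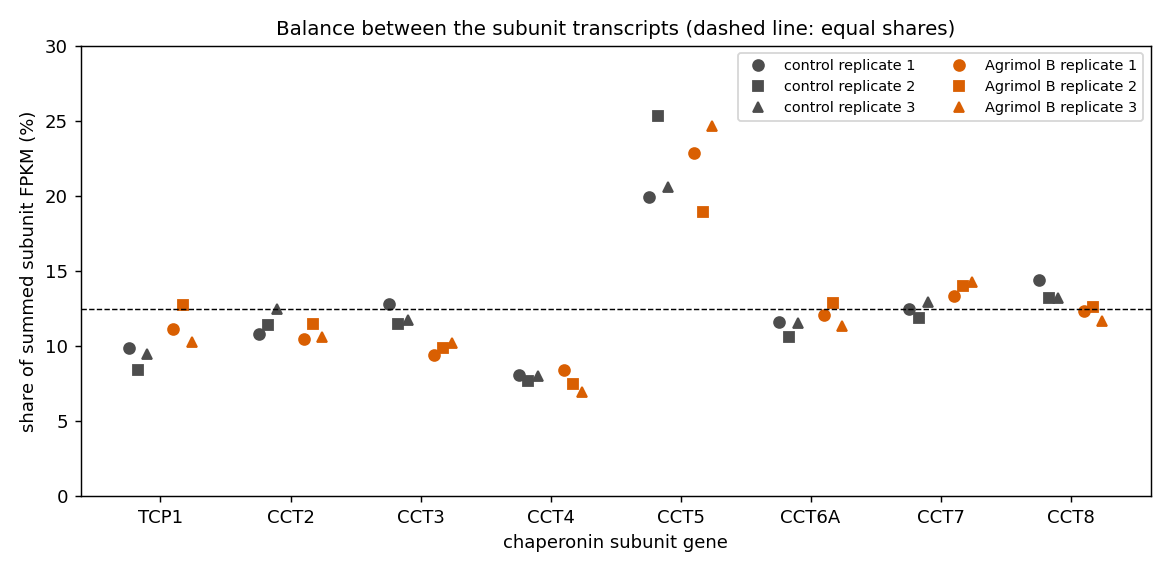
Share of the summed subunit FPKM (%) held by each of the 8 genes in each library; the dashed line marks equal shares. CCT3 and CCT8 hold less and TCP1 and CCT7 hold more with Agrimol B, and CCT4 holds the least in all 6 libraries.

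The sequences upstream of the start sites were searched for known short runs of letters. RefSeq windows (GRCh38.p14) were matched for 7 of the 8 genes, CCT6A being the one without, and the 250 bases before each start were searched on both strands. The CCAAT box (CCAAT, or ATTGG on the other strand) was found in 4 of the 9 windows of these 7 genes and in 32.0% of all 35116 windows. The 4 windows belong to CCT3, CCT8, CCT2 and TCP1. Whether 4 of 9 exceeds the share of all windows was not tested, nor whether the box goes with the differences between the groups. The sites are shown as letters that those 4 genes have in common, 5′ to 3′ on the strand of the gene, with the CCAAT box in capitals. The ETS core, described below, was also found in 4 of the 9 windows, against a lower share of all windows (16.5%), and its sites are not shown.
CCT3, chr1:156338353-156338377, minus strand, 75 bases before the start: aaggctgtcaATTGGtctgtttttg
CCT3, chr1:156338312-156338336, minus strand, 34 bases before the start: gggtgcggtgATTGGcgactacctt
CCT8, chr21:29073697-29073721, minus strand, 63 bases before the start: gggtgggctaATTGGagagccagga
CCT2, chr12:69585358-69585382, plus strand, 91 bases before the start: ccgtggggctCCAATcaaaatggga
TCP1, chr6:159789742-159789766, minus strand, 154 bases before the start: cggctatctaATTGGacaaaaatgc
Each of these stretches overlaps an annotated exon of its own gene in GENCODE release 29.

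Heat shock factors, known activators of chaperonin genes, bind inverted repeats of GAA. The pair GAANNTTC was found before the starts of TCP1 and CCT2 (for CCT2, of a second, downstream start), in 2 of the 9 windows and in 5.78% of all windows. That downstream CCT2 start lies 223 bases from the nearest GENCODE start, and the window of the upstream CCT2 start held 0 GAANNTTC. The pair TTCNNGAA was found in 0 of the 9 windows and 6.62% of all windows. The 2 sites of GAANNTTC are shown with the repeat in capitals.
TCP1, chr6:159789816-159789843, minus strand, 231 bases before the start: cgtttgaggcGAAGGTTCaacctcttcc
CCT2, chr12:69585790-69585817, plus strand, 89 bases before the downstream start: ccggagcgaaGAAATTTCtagtgtggga
The TCP1 stretch overlaps an exon of its neighbour MRPL18 on the other strand, and the CCT2 stretch an exon of CCT2. The ETS core CGGAAG was found before a start of TCP1, CCT2, CCT5 and CCT7, in 4 of the 9 windows and in 16.5% of all windows. The E-box CACGTG and the core ACTACAA of the ZNF143 site were found in 0 of the 9 windows, against 6.34% and 2.47% of all windows. A match is a run of letters and says nothing about binding in these cells.

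Summed over the complex, the chaperonin transcripts differed far less between the groups than those of actin and tubulin. The 8 subunits summed to 1716, 1814 and 1693 FPKM in control and to 1592, 1578 and 1655 FPKM in Agrimol B libraries, or 0.486% ± 0.0170 and 0.454% ± 0.0120 of all FPKM. The ratio of the group means was 0.924. The 6 actin genes summed to 2562 ± 243 FPKM in control and 786 ± 77.3 FPKM with Agrimol B, and the 12 tubulin genes to 3062 ± 226 and 1675 ± 48.1 FPKM. Actin transcripts per chaperonin transcript thus went from 1.47 ± 0.128 to 0.489 ± 0.0557, and tubulin transcripts from 1.76 ± 0.179 to 1.04 ± 0.0517. No test is given for these sums. In bulk samples, fewer cells with a transcript and less of it per cell cannot be told apart.

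**Figure D4:**
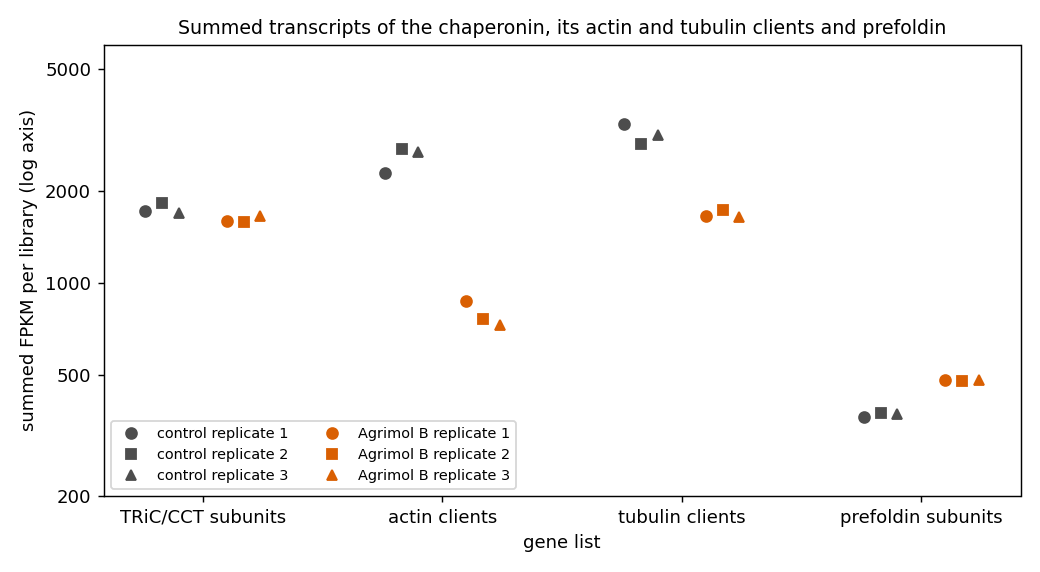
Summed FPKM per library (log axis) of the 8 TRiC/CCT subunits, 6 actin genes, 12 tubulin genes and 6 prefoldin subunits. The chaperonin sums of the groups lie close together (1693 to 1814 against 1578 to 1655), whereas those of actins and tubulins lie far apart and the prefoldin sum lies higher with Agrimol B through PFDN2.

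Of the 5 actin genes tested, 5 fell and 0 rose (median log2 difference -1.63), led by smooth muscle alpha-actin ACTA2, smooth muscle gamma-actin ACTG2 and cytoplasmic beta-actin ACTB. ACTC1, 1 of the 5, was low, at 1.58 ± 0.0615 FPKM in control and 0.473 ± 0.0444 FPKM with Agrimol B. With a filter of 5 FPKM, or with any single control library left out, ACTC1 was not tested and the other 4 were called lower. ACTA2 fell 20.9-fold from 99.3 ± 2.54 to 4.76 ± 0.298 FPKM (limma adjusted p = 2.82e-06). Of all genes tested 21.4% were called lower, and of the abundant ones 36.9%. ACTG2 fell 3.83-fold from 171 ± 2.82 to 44.6 ± 4.25 FPKM, and ACTB 3.12-fold from 1567 ± 249 to 502 ± 57.0 FPKM (limma adjusted p = 2.09e-05 and 0.000258). Of the 12 tubulin genes tested, 8 fell and 0 rose (median -0.82), beside the same background shares of 21.4% and 36.9%. TUBB2B, TUBA1B and TUBB4A, which encode tubulin chains, fell 2.26-fold, 2.02-fold and 2.40-fold. Actin genes resemble one another, as do tubulin genes, so the split of reads between close copies is uncertain. Of 19 WD-repeat and other clients, 6 fell and 4 rose (median -0.10), or 10 of 19 called where 52.0% of all genes tested were. The split became 9 lower and 2 higher with median-ratio scaling and 8 lower and 3 higher with quantile normalization. The cyclin CCNE1 and the mitotic genes CDC20 and PLK1 had the largest differences and fell 1.69-fold, 1.61-fold and 1.53-fold.

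Among the factors that hand chains to the ring, prefoldin was split. Prefoldin is a hexamer that holds actin and tubulin chains and passes them to TRiC. Of its 6 genes, 1 rose, 1 fell and 4 did not pass the test (median 0.002), beside 30.6% of all genes called higher and 21.4% lower. PFDN2 held 96.6, 108 and 109 FPKM in control and 246, 238 and 236 FPKM in Agrimol B libraries. It rose 2.30-fold (log2 difference 1.20, SE 0.05; limma adjusted p = 3.73e-05). The other 5 prefoldin genes summed to 266 ± 3.05 FPKM without and 239.7 ± 4.95 FPKM with Agrimol B. PFDN2 overlaps NIT1 on the other strand, which stood at 8.53 ± 0.784 and 13.7 ± 1.13 FPKM. PFDN5 fell 1.30-fold from 84.6 ± 5.39 to 65.3 ± 0.626 FPKM (adjusted p = 0.00214).

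Of 7 prefoldin-like and R2TP genes, a related co-chaperone assembly that works with HSP90, 4 rose and 2 fell (median 0.15), beside 30.6% of all genes called higher. With median-ratio scaling 2 rose and 2 fell, and with the replicate number as a block 3 rose and 1 fell. UXT rose 1.26-fold and PIH1D1 1.25-fold, and RPAP3 fell 1.23-fold. The call of PIH1D1 (adjusted p = 0.0410) was lost with median-ratio scaling and with quantile normalization (adjusted p = 0.0849 and 0.0573), with the replicate block (0.0813) and without any single library except control replicate 2. Of 3 phosducin-like cofactors tested, which bind TRiC directly, PDCL3 and PDCL fell 1.32-fold and 1.26-fold, beside 21.4% of all genes called lower. Of 7 tubulin cofactors and related genes, 2 rose and 1 fell (median -0.01), beside 30.6% of all genes called higher and 21.4% lower. TBCC and TBCEL rose 1.30-fold and 1.46-fold and TBCD fell 1.32-fold. The calls of TBCEL and TBCD were lost when single libraries were left out (adjusted p up to 0.0934 and 0.0636), and that of TBCEL with quantile normalization (0.0549).

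Of 10 genes of other cytosolic chaperones and their partners, 8 fell and 0 rose (median -0.36), and 6 fell with quantile normalization. The background called lower was 21.4% of all genes tested and 36.9% of the abundant ones. HSPA8, the constitutive HSP70, fell 2.64-fold from 1345 ± 4.80 to 510.0 ± 15.6 FPKM (limma adjusted p = 6.74e-06), its partner DNAJA1 fell 1.60-fold and the HSP90 gene HSP90AB1 1.50-fold. Among other chaperonins, the mitochondrial ring HSPD1 and its lid HSPE1, which share a promoter region and overlap, fell 1.45-fold and 2.05-fold. BBS10, a chaperonin-like protein of the cilium base, rose 1.37-fold from a low 3.12 ± 0.131 FPKM. Of 3 transcription factors known to act on chaperonin genes (HSF1, HSF2 and ZNF143), 0 passed limma's test at the adjusted threshold, which 52.0% of all genes tested passed. HSF1 alone, 1 of the 3, had an unadjusted p under 0.05. HSF1 held 24.2 ± 4.33 and 30.4 ± 2.31 FPKM (adjusted p = 0.0810). Whether these lists differ from the subunits was not tested.

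**Figure D5:**
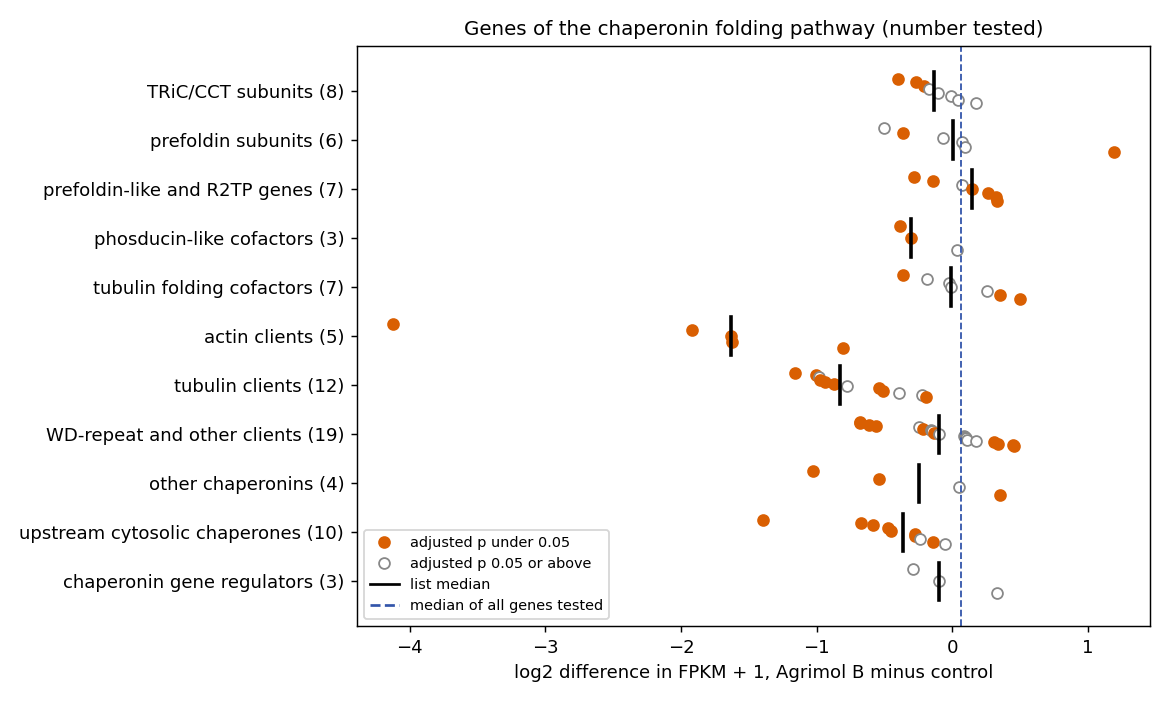
Log2 difference (Agrimol B minus control) of each tested gene on the 11 lists of the folding pathway; filled points passed an adjusted p of 0.05, black lines are list medians and the dashed line is the median of all genes tested (0.07). The subunits lie near 0, actins and tubulins lie to the left, and PFDN2 is the point farthest to the right.

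The genes most like the chaperonin were sought among 1289 other genes whose mean reached 50 FPKM, by the Euclidean distance over the 6 libraries between their log2 profile and the mean profile of the 8 subunits, each set relative to control. The 5 nearest were POLDIP2, FEN1, GGCT, MAT2A and RPL7, at distances of 0.04 to 0.06. They went from 71.8 ± 1.06 to 66.8 ± 0.583 FPKM (POLDIP2), 82.7 ± 0.663 to 76.3 ± 1.89 (FEN1), 52.2 ± 1.86 to 48.3 ± 0.198 (GGCT), 109 ± 2.03 to 101 ± 2.40 (MAT2A) and 609 ± 19.8 to 564 ± 6.92 FPKM (RPL7). POLDIP2, FEN1 and RPL7 were called lower (limma adjusted p = 0.0431, 0.0346 and 0.0357), and GGCT and MAT2A were not (0.0627 and 0.0615). Those calls were lost in some alternative runs (adjusted p up to 0.124, 0.0964 and 0.353). The mean profile of the subunits lay at -0.13, -0.12 and -0.10 in the Agrimol B libraries and at -0.026 to 0.030 in control libraries. A profile with so small a difference has many neighbours, and nothing is read from the names.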

How the data were processed

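The authors deposited 1 table of FPKM values, with a column for each library. Per the submitters' processing notes, HISAT, Trimmomatic, cutadapt, FastQC and the build hg38 were used, with no versions or roles. Which program, annotation, strand setting and gene filter gave the FPKM is not stated there. Control columns are named NC where the descriptions read CN; they were matched by number.

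Genes whose mean over the 6 libraries reached 1 FPKM were tested on log2(FPKM + 1), a scale that understates changes of low genes, with limma 3.58.1 in R 4.3.3 (group term, variance trend, two-sided). Folds are ratios of group means of FPKM. In simulated libraries of this design (12079 genes), 94% of 100 genes changed 2-fold and 24% of 100 changed 1.25-fold were recovered. Of 122 calls, 4 were false. Far fewer genes changed there than the 6311 called here, which makes the adjusted threshold stricter in the simulation. The 24% therefore does not measure how often differences of the size of the subunits are missed here, and that rate is not known. Python 3.11.15 (pandas 2.3.3, numpy 2.4.6, matplotlib 3.10.9) did the rest. Coordinates are from GENCODE release 29. Relative depths came from ratios of values under 0.05 FPKM within 0.01 (log2) of a common ratio.

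The members and the lists of 88 pathway genes were chosen with earlier results of these data known. Named genes were the 8 members, up to 3 called genes per list with the largest differences, and the 5 nearest profiles. Replicate numbers do not pair the libraries.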

Additional observations from a re-analysis of the deposited data

How the results depend on the processing

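CCT3 and CCT8 kept their fall and their call under all 13 alternatives (adjusted p up to 0.0169 for each). The number of subunits called lower ran from 2 to 4 and the number called higher from 0 to 1, the latter being TCP1. With quantile normalization TCP1 passed (0.24), CCT2 did not (-0.13), and CCT5, CCT6A and the neighbour gene RPL7 changed sign (0.052, 0.038 and 0.044). With median-ratio scaling CCT4 passed (-0.24), CCT7 changed sign (-0.022) and the summed subunit ratio went from 0.924 to 0.882. When single libraries were left out, the log2 difference of CCT2 ran from -0.26 to -0.17, of CCT4 from -0.24 to -0.13, of CCT5 from -0.20 to 0.035 and of CCT6A from -0.043 to 0.013, and 1 to 2 tubulin cofactors and 0 to 1 regulators were called. Among the regulators, HSF2 was called lower with median-ratio scaling and with quantile normalization (1 call each), and HSF1 higher with the replicate block and without control replicate 1 (1 call each). Without a filter on low values 5 other chaperonins were called, since CCT6B and BBS12 then entered. In each case where no construction shows it, the cause was not tested.

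The deviations of same-numbered control and Agrimol B libraries from their group means had correlations of -0.01 to 0.04, and control replicate 2 correlated best with Agrimol B replicate 3 (0.07), so the numbers are not treated as pairs. With the replicate block 3 subunits were called, as without it, and over all genes the count went from 6311 to 5776. The unknown number of reads leaves the counting error of each FPKM value unknown, and 3 libraries per group limit what small differences can show.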
